A study of Mus musculus with 15 samples.

Results

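Ikaros and Ets family genes encode 2 groups of transcription factors that are known for their part in lymphocyte development, and their loci were examined for cohesin, CTCF and active chromatin in immature T cells. The 10 genes were taken by name, 5 of the Ikaros family (Ikzf1, Ikzf2, Ikzf3, Ikzf4 and Ikzf5) and 5 of the Ets family (Ets1, Ets2, Fli1, Elf1 and Gabpa), out of 22350 protein-coding genes of the mm9 annotation. Every peak that fell in a gene body or within 100 kb on either side of it was used, and this stretch is called the window of the gene. The peaks came from ChIP-seq, which maps where a protein or histone mark lies on DNA, in wild type primary thymocytes of C57BL/6 mice that carried CD4 and CD8 and no CD69 at their surface. Cells of this kind are double-positive thymocytes that have not yet received a selection signal. CTCF had 1 library, Rad21, a subunit of cohesin, had 2, and H3K27ac, an acetylated histone found at promoters and enhancers in use, had 2. All libraries came from this genotype and cell type, so no condition was compared. The labels give no age and leave unsaid if the replicates are different mice. The 8 Hi-C samples and 2 input samples of the series of 15 were not analysed here.

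CTCF binds a defined DNA sequence and can halt cohesin as it extrudes chromatin loops, while cohesin also gathers at active promoters and enhancers where it is loaded or paused. Ikaros proteins are zinc finger factors that work with chromatin remodelling and deacetylase complexes, and Ikaros itself, the product of Ikzf1, is required for lymphoid development. Ets proteins share a winged helix DNA-binding domain that reads a GGAA core. Ets1, Fli1 and Elf1 are known in T cells, and Gabpa, the DNA-binding subunit of the GABP complex, is expressed in most cell types.

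With peak lists and no read counts, library depth and its precision are unknown. CTCF had 35345 peaks, the Rad21 replicates 38430 and 48462, and the H3K27ac replicates 38700 and 24765. A region was called shared when peaks of both replicates merged into it, which left 30959 Rad21 and 16230 H3K27ac regions. Of 183 Rad21 peaks of replicate 1 in the windows, 86.3% overlapped a peak of replicate 2, where the genome gave 83%, and of 243 peaks of replicate 2 61.3% were matched, where the genome gave 65.1%. For H3K27ac, 45.3% of 148 peaks of replicate 1 were matched, where the genome gave 42%, and 88.5% of 113 peaks of replicate 2, where the genome gave 74.8%.

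The cell type was checked by promoter H3K27ac at marker genes. Of 9 genes of double-positive thymocytes, 8 were annotated as protein-coding and all 8 had H3K27ac and Rad21 at the promoter. Of the B cell genes reported here, Cd79b had promoter H3K27ac, and Cd79a, Pax5, Ebf1 and Ms4a1 had none. H3K27ac marked the promoters of 0 of 6 myeloid genes, 1 of 4 erythroid genes (Klf1) and 0 of 5 thymic epithelial genes. The part of other cell types in the results was not tested.

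The sequences under the regions that the results turn on are given first, on mm9. The highest Rad21 region of Ikzf1 lay on a CTCF peak in an intron, and its CTCF core, the conserved part of the motif, is shown because the last H3K27ac region of the gene that was shared by both replicates ends there. Capitals mark the core in each of the following short sequences, which are printed 5′ to 3′ on the strand of the core.
Ikzf1 intron, chr11:11642924-11642952, minus strand: aagcatgaCCACAAGGTGGCGatattggc

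The Ets2 locus had 5 CTCF peaks with Rad21, all upstream of the gene body and all with a core on the plus strand, which is the strand of Ets2. They are shown from far to near, a set chosen after its values were seen.
Ets2 at -96.6 kb, chr16:95827076-95827104, plus strand: aaccctcaCCTGCAGGGGGCAgcagagag
Ets2 at -86.3 kb, chr16:95837353-95837381, plus strand: tgaattggCCAGAAGGTGGCGcacgattc
Ets2 at -54 kb, chr16:95869627-95869655, plus strand: tgtttggaCCAGGTGGTGGCGctgcagac
Ets2 at -43.1 kb, chr16:95880590-95880618, plus strand: ctgcctcaCCAGCAGGGGGTGccgtttca
Ets2 at -0.2 kb, chr16:95923504-95923532, plus strand: tcggctcaGCCCTAGGGGGCGccatccgc

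Ets1 and Fli1 are neighbours that are transcribed away from each other, and the stretch between them held the Rad21 region with the highest fold of all 10 windows in replicate 1. The CTCF cores of that stretch that lay under Rad21 are shown next, with distances from the 5′ end of Ets1, a set also chosen after its values were seen. At -50.7 kb the core matched the consensus with 0 mismatches, at -46.1 kb with 1, and at the other two with 2.
Ets1 at -65.3 kb, chr9:32378445-32378473, plus strand: gacacactCCAGCAGAGGAAGtggcggca
Ets1 at -54.2 kb, chr9:32389612-32389640, minus strand: gtgctcaaCAGGCAGATGGCAgcctaatc
Ets1 at -50.7 kb, chr9:32393076-32393104, plus strand: gcatatgtCCAGTAGGGGGCAgactcccg
Ets1 at -46.1 kb, chr9:32397680-32397708, plus strand: gcatatggCCAGCAGGGGTCGctacaaag

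Rad21 regions without a CTCF peak are called CTCF-free. For Ets1, Ikzf1, Fli1 and Elf1, the highest such region lay in an intron of the gene (regions were ranked by fold in each replicate and judged by the worse of both ranks), and 90 bases on either side of its summit in Rad21 replicate 1 are shown on the plus strand. Capitals mark matches on either strand to an Ets core (ACAGGAAG or CCGGAAGT), an Ikaros core (TGGGAA), a Runx core (TGTGGTT) or an E-box (CAGCTG or CAGGTG).
Ets1 intron, chr9:32553627-32553807: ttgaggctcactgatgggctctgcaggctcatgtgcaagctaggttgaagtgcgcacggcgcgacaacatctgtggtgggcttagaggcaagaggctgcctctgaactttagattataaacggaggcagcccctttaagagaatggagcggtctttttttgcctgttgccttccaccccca
Ikzf1 intron, chr11:11639158-11639338: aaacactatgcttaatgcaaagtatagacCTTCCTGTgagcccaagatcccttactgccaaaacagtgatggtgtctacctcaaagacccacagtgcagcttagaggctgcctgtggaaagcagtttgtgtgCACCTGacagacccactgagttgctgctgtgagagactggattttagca
Fli1 intron, chr9:32297069-32297249: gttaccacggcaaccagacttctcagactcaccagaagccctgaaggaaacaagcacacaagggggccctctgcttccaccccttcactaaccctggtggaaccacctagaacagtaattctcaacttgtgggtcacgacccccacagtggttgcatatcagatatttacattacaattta
Elf1 intron, chr14:79921707-79921887: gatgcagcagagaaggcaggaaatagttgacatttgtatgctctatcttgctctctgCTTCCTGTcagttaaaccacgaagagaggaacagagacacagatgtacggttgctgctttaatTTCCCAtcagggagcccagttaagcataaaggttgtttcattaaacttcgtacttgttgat
The Ikzf1 stretch held an Ets core and an E-box, the Elf1 stretch an Ets core and an Ikaros core, and none of the searched letters were found in the Ets1 and Fli1 stretches. No matches overlapped each other.

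Cohesin around these genes was divided almost evenly between CTCF sites and sites without CTCF, and most of the sites without CTCF lay in active chromatin. The 10 windows held 142 shared Rad21 regions, of which 68 (47.9%) overlapped a CTCF peak, where the background over the genome was 65.9%. The other 74 were CTCF-free, and 64 of them (86.5%) lay in a shared H3K27ac region, against a background of 72%. Of the CTCF-bound regions, 26 (38.2%) lay in H3K27ac, against 18.7%. Neither a CTCF peak nor shared H3K27ac was found at 10 regions (7.04%), against 9.54% in the genome. These are counts over regions that share loci, and no test was run on them. Among the CTCF-bound regions, 13 (19.1%, against 9.46% in the genome) overlapped only CTCF peaks with q above 0.05, and the deposited CTCF list includes such peaks.

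The single Rad21 libraries gave lower CTCF shares. A CTCF peak underlay 37.7% of the 183 Rad21 peaks of replicate 1 and 28.4% of the 243 peaks of replicate 2 (33.1% ± 6.58, SD, n = 2), where all peaks of the genome gave 57.5% and 47.2%. Thus without replicate 1 the share was 28.4% in place of 47.9%, and the windows stayed below the genome in either library. The CTCF-free peaks lay in H3K27ac in 82.5% and 78.7% of cases (80.6% ± 2.63, SD, n = 2), with 66.4% and 62.1% in the genome. Using H3K27ac replicate 1 or 2 alone, 89.2% or 79.7% of the 74 shared CTCF-free regions were covered, with 76.8% or 68.0% in the genome. Keeping peaks with −log10 q from 5 upward in every list left H3K27ac at 30.8% of CTCF-free regions, with 7.30% in the genome.

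**Figure D1:**
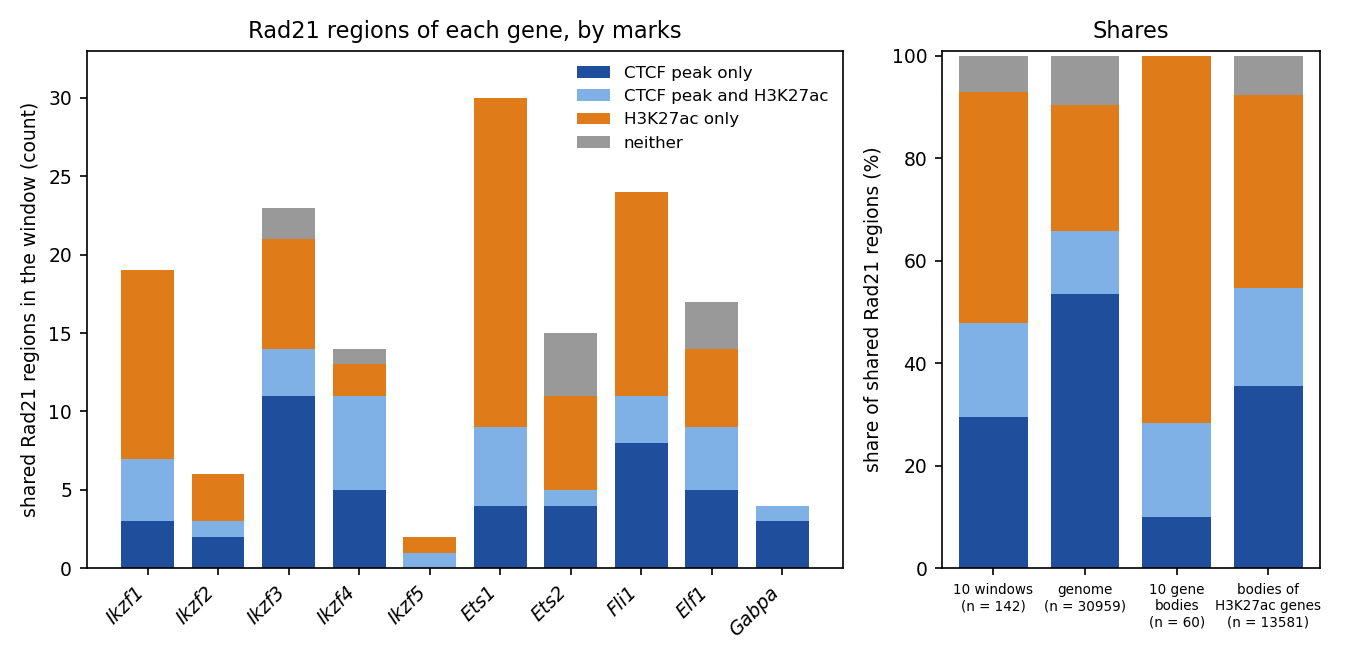
Left, shared Rad21 regions in the window of each gene (count), split by overlap with a CTCF peak and with shared H3K27ac. Right, the same classes as a share of all regions (%) in the 10 windows, the genome, the 10 gene bodies and the bodies of all genes with promoter H3K27ac. Ets1 held 30 regions, 21 of them CTCF-free, Gabpa held 4, all on CTCF, and no region in the 10 gene bodies lay outside both marks.

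Over the pooled windows most CTCF-free cohesin lay inside the genes themselves, but this came mainly from Ets1, Ikzf1 and Fli1. The gene body held 14 of the 21 CTCF-free regions of the Ets1 window, 9 of 12 at Ikzf1 and 9 of 13 at Fli1. It held 4 of 9 at Ikzf3, 4 of 8 at Elf1 and 1 of 1 at Ikzf5. At Ets2 it held 1 of 10, at Ikzf4 1 of 3 and at Ikzf2 0 of 3. Inside the 10 gene bodies, 43 of 60 shared Rad21 regions (71.7%) were CTCF-free, where the background was 38.6% in the bodies of all protein-coding genes and 45.3% in the bodies of genes with promoter H3K27ac. All 43 lay in shared H3K27ac, against 83% of such regions in the bodies of genes with promoter H3K27ac. Of the 43, 42 overlapped an H3K27ac peak of replicate 1, 39 a peak of replicate 2 and 38 peaks of both. In the flanks, 31 of 82 regions (37.8%) were CTCF-free, and 67.7% of those lay in H3K27ac. The genome gave 34.1% and 72.0%, so the flanks lay near the genome in both shares. By position, 12 of the 74 CTCF-free regions were at the promoter of a member gene, 33 elsewhere inside a member gene, 5 at the promoter of another gene, 3 inside another gene and 21 between genes. The median distance of a CTCF-free region to the nearest CTCF peak was 10173.5 bp.

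The families and the neighbouring genes were also taken apart. The Ikaros windows held 64 Rad21 regions, of which 36 (56.2%) were CTCF-bound, and the Ets windows held 78, of which 32 (41.0%) were. The windows of Ets1 and Fli1 overlap and share 12 regions, which is 40% of the 30 of Ets1 and 50% of the 24 of Fli1. Without these neighbours, 100 regions remained, of which 54% were CTCF-bound, and 78.3% of the CTCF-free regions lay in H3K27ac.

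The genes fell into an order by how much CTCF-free cohesin surrounded them. The density of CTCF-free Rad21 had a median of 2.93 regions per 100 kb over the 10 windows (0 to 6.53), against 0.422 over all protein-coding genes and 0.898 over the 9268 genes with promoter H3K27ac. Ets1 was highest at 6.53 per 100 kb, a density that 0.421% of all genes reached. Ets2 followed at 4.57, Ikzf1 at 4.17, Fli1 at 4.07, Ikzf3 at 3.20, Elf1 at 2.66, Ikzf4 at 1.39, Ikzf2 at 0.846, Ikzf5 at 0.451 and Gabpa at 0. Ets2 and Ikzf1, Ikzf1 and Fli1, and Ikzf2 and Ikzf5 differ by less than 1 region in a window adds to the density. The 7 genes from Ets1 to Ikzf4 lay above the median of genes with promoter H3K27ac, and Ikzf2, Ikzf5 and Gabpa lay below it.

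**Figure D2:**
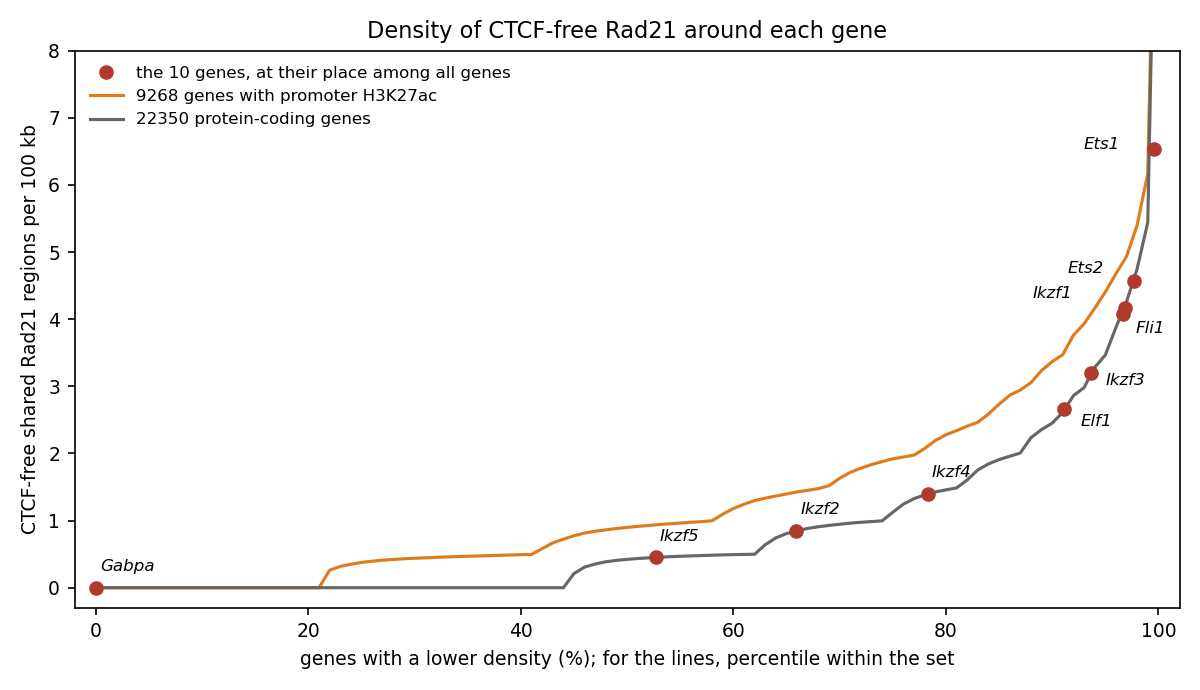
CTCF-free shared Rad21 regions per 100 kb of window (vertical axis) for the 10 genes (points, placed by the percentage of all genes with a lower density) and as percentile curves for genes with promoter H3K27ac and for all protein-coding genes. Ets1 sits at 6.53 near the right end and Gabpa at 0.

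CTCF peaks had a density closer to that of other genes. The median was 2.79 CTCF peaks per 100 kb in the 10 windows, against 2.41 over all genes and 3.14 over genes with promoter H3K27ac, and 3 of the 10 genes lay above the median of genes with promoter H3K27ac. All shared Rad21 regions together had a median density of 6.55 per 100 kb, against 1.98 over all genes and 3.16 over genes with promoter H3K27ac. In the single libraries that density was 10.3 without Rad21 replicate 1 and 7.87 without replicate 2. H3K27ac covered a median of 11.9% of a window, against 1.85% over all genes and 3.92% over genes with promoter H3K27ac. Ets1 had the widest cover at 33.6% of its window, reached by 0.161% of genes, and Ikzf1 followed at 23.0%, reached by 0.635%. In H3K27ac replicates 1 and 2 alone, Ets1 had 36.0% and 22.9% covered, Ikzf1 24.1% and 9.79%, and Fli1 20.1% and 11.9%, so Ikzf1 was second in replicate 1 and Fli1 in replicate 2. Of 77 CTCF peaks in the windows, 68 held a shared Rad21 region (88.3%, background 58.2%), and of 67 shared H3K27ac regions 46 did (68.7%, background 49.3%).

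Promoters of the 10 genes mostly carried H3K27ac and cohesin. Within 2 kb of an annotated transcription start, 9 of 10 had shared H3K27ac (background 41.5% of protein-coding genes), 8 had shared Rad21 (31.5%), 5 had a CTCF peak (26.4%) and 7 had a CTCF-free shared Rad21 region (17%). Among all genes with promoter H3K27ac, 61% had Rad21 at the promoter, and 8 of the 9 such members did. The promoters with Rad21 and no CTCF peak at all were those of Ikzf2, Ikzf5 and Ets1. With −log10 q from 5 upward in every list, H3K27ac was left at 3 promoters and CTCF at 2.

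Ikzf4, which encodes Eos, a factor known in regulatory T cells, had no peak of any of the 5 lists within 2 kb of its 8 annotated starts. Gabpa had H3K27ac folds of 2.24 and 2.36 in replicates 1 and 2, no CTCF peak, and a Rad21 peak in replicate 2 only, with a fold of 7.03. The neighbour Atp5j spans the 5′ end of Gabpa, from -7.06 to 0.7 kb, so these peaks cannot be assigned to Gabpa alone. All folds are enrichments over local background as the authors' peak caller gave them, and they are set side by side only within a list.

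Rad21 promoter peaks of the remaining 8 genes spanned a narrow range in replicate 1 and a wider range in replicate 2. In replicate 1 they were lowest at Ikzf5, with a fold of 8.80, and highest at Elf1, with 16.7 near a start 34.5 kb inside the gene. In replicate 2 they were lowest at Ikzf2, with 6.56, and highest at Ets2, with 27.1. Ikzf1 had Rad21 folds of 14.4 and 9.37 in replicates 1 and 2, Ikzf3 had 11.7 and 13.5, and Fli1 had 14.6 and 16.4. Ets1 had 13.0 and 25.8, and Ets2 had 9.18 and 27.1, so that the replicates ordered the genes differently. CTCF promoter peaks were highest at Ikzf1, with a fold of 8.74, and Ets2, with 7.38, while those of Ikzf3 (2.88) and Fli1 (2.09) had a deposited −log10 q of 0. H3K27ac folds of replicates 1 and 2 were 9.34 and 14.4 at Ikzf3, the gene of Aiolos, and 2.12 and 2.29 at Fli1. At Elf1 they were 2.29 and 16.7, which belong to different starts. Its outer start had 2.25 and 16.7, and the start 34.5 kb inside the gene had 2.29 and 4.77. The outer start lies in a promoter shared with the neighbour Wbp4, so the peaks there cannot be assigned to Elf1 alone. Spearman's rho between the H3K27ac folds of both replicates was -0.00219 across the 67 shared regions of the windows and 0.0642 across the genome. H3K27ac heights are therefore given as values, and they enter no ranking except the promoter likeness in the last section.

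**Figure D3:**
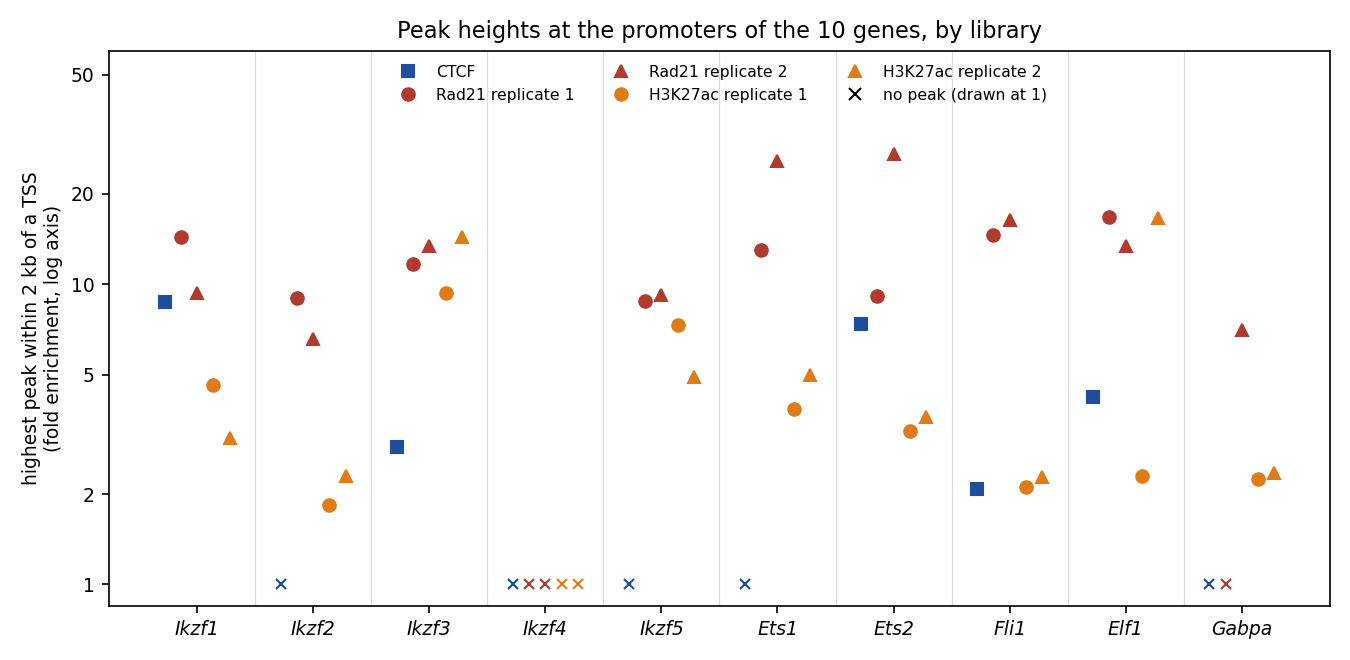
Fold enrichment (log axis) of the highest peak within 2 kb of a transcription start of each gene, by library, with crosses for no peak. Rad21 points of both replicates stand between 6.56 and 27.1 at 8 genes, and Ikzf4 has crosses for all 5 libraries.

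At Ets1 the cohesin of the promoter was at the internal start. Ets1 (chr9:32443806-32565405, plus strand) has 2 annotated starts, the second 59.8 kb inside the gene. The internal start lay in a CTCF-free Rad21 region of 2923 bp with folds of 13.0 and 25.8 in replicates 1 and 2. At the outer start, H3K27ac had folds of 3.20 and 2.41 and no Rad21 peak was called. The internal start also lay in an unbroken H3K27ac region of 68.3 kb, from 57.0 to 125.3 kb, which held 12 of the 14 CTCF-free Rad21 regions of the gene body. It was called as a single peak of 68305 bp in H3K27ac replicate 1 and rests in replicate 2 on narrower peaks, the widest at the promoter being 29711 bp. Of 11823 stretches obtained by joining H3K27ac regions within 12 kb, whose median width was 2125 bp, this was the 35th widest. From H3K27ac replicate 1 alone the widest stretch at Ets1 was 101.7 kb, the 95th of 19064. From replicate 2 alone it was 58.8 kb, the 64th of 14901. In the whole gene body 14 CTCF-free regions were found, a number that 13 genes of the genome reach.

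The highest CTCF-free region of Ets1 was the intronic one printed above at 110 kb, with Rad21 folds of 20.8 and 32.5 and the nearest CTCF peak 33178 bp away. Among the 21 CTCF-free regions of the Ets1 window the median folds were 6.97 and 9.37 in replicates 1 and 2, with ranges of 5.23 to 20.8 and 3.96 to 32.5. The 9 CTCF-bound regions of the window had medians of 15.8 and 16.4. Both CTCF-bound regions inside Ets1 rested on weak CTCF peaks, with folds of 2.40 and 3.14 and −log10 q of 0 and 0.479.

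Between Ets1 and Fli1 lay the CTCF-bound region with the highest Rad21 fold of all windows in replicate 1; in replicate 2 a region of Ikzf1 was higher. Fli1 (chr9:32229793-32348974, minus strand) starts at -94.8 kb from the 5′ end of Ets1. The region at -43.9 kb (chr9:32399304-32400506) had Rad21 folds of 68.3 and 74.9 in replicates 1 and 2, a CTCF fold of 7.71 and H3K27ac folds of 3.89 and 2.31. Its CTCF summit lacked a core within 2 mismatches. Its neighbour at -46.1 kb, with the printed core, had Rad21 folds of 60.2 and 53.9 and a CTCF fold of 13.2. A further 3 CTCF peaks between -65.3 and -50.7 kb carried lower Rad21 folds, of 15.8 to 17.9 in replicate 1 and 6.61 to 19.9 in replicate 2. The peak with the perfect core at -50.7 kb had Rad21 folds of 17.9 and 19.9 and a CTCF fold of 10.8, so the order of CTCF folds and of Rad21 folds was not the same among these peaks. Between the region at -43.9 kb and the 5′ end of Ets1, 4 CTCF-free regions lay in H3K27ac, with Rad21 folds of 5.29 to 7.74 in replicate 1 and 5.85 to 21.8 in replicate 2.

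The Fli1 gene body carried its CTCF-free cohesin in the part nearest its start. Fli1 encodes an Ets factor with a known part in blood formation. All 9 CTCF-free regions of its body lay within 55 kb of its start and in H3K27ac, and 56 genes of the genome reach 9. Of these, 7 were in an H3K27ac stretch of 34.8 kb between 20.2 and 55.0 kb, the 247th widest. The highest was the printed intronic region at 51.8 kb, with Rad21 folds of 13.4 and 23.5. The body also had 3 CTCF-bound regions. One was at the promoter, at 0.4 kb, in H3K27ac, with Rad21 folds of 14.6 and 16.4. It rested on a weak CTCF peak, with a fold of 2.09 and −log10 q of 0. The others were intronic, at 84.5 and 95.4 kb outside shared H3K27ac. Rad21 folds were 17.2 and 12.4 at the nearer and 27.8 and 18.1 at the farther. The CTCF peak of the nearer had a fold of 3.74 and −log10 q of 1.28 (q above 0.05). That of the farther had a fold of 10.9 and −log10 q of 15.9.

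Ikzf1 also had much of its CTCF-free cohesin in a wide H3K27ac stretch. Ikzf1 (chr11:11585006-11672929, plus strand) lay in a stretch of joined H3K27ac regions of 86.8 kb, from -28.7 to 58.1 kb, the 16th widest of 11823. That stretch held 12 CTCF-free Rad21 regions, and 16 stretches of the genome hold at least 12. In the single H3K27ac libraries the rank was lower. From replicate 1 alone the widest stretch was 95.9 kb, the 109th of 19064. From replicate 2 alone it was 39.8 kb, from -28.7 to 11.1 kb, the 209th of 14901. The folds of the 12 CTCF-free regions ranged from 3.26 to 15.6 in replicate 1 and from 4.68 to 16.6 in replicate 2. The highest was the printed region at 54.2 kb, with 15.6 and 16.6, and regions at 31.8 kb (15.1 and 12.4) and 41.2 kb (13.8 and 9.92) followed.

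The Rad21 region at 57.8 kb of Ikzf1, on the printed core, had folds of 55.2 and 76.5 and a CTCF fold of 8.44. The last shared H3K27ac region of the stretch ended at 58.09 kb, and no further shared region lay in the remainder of the gene. That end is the end of a peak of replicate 1, which ran unbroken from 19.5 kb. Replicate 2 had narrower peaks there, the last of them from 55.4 to 56.3 kb, and no peak at the Rad21 regions at 52.1, 54.2, 56.8 and 57.8 kb. Beyond the shared region each replicate had 1 more peak inside the gene that the other lacked, at 66.2 to 67.2 kb in replicate 1 and at 61.3 to 61.7 kb in replicate 2. The CTCF core at 57.8 kb is on the minus strand and so reads toward the start of the gene. The next CTCF peak with Rad21, at 103.6 kb in an exon of the neighbour Fignl1, also had a minus strand core, with Rad21 folds of 33.1 and 53.5. No CTCF peak was found in the 100 kb upstream of Ikzf1.

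**Figure D4:**
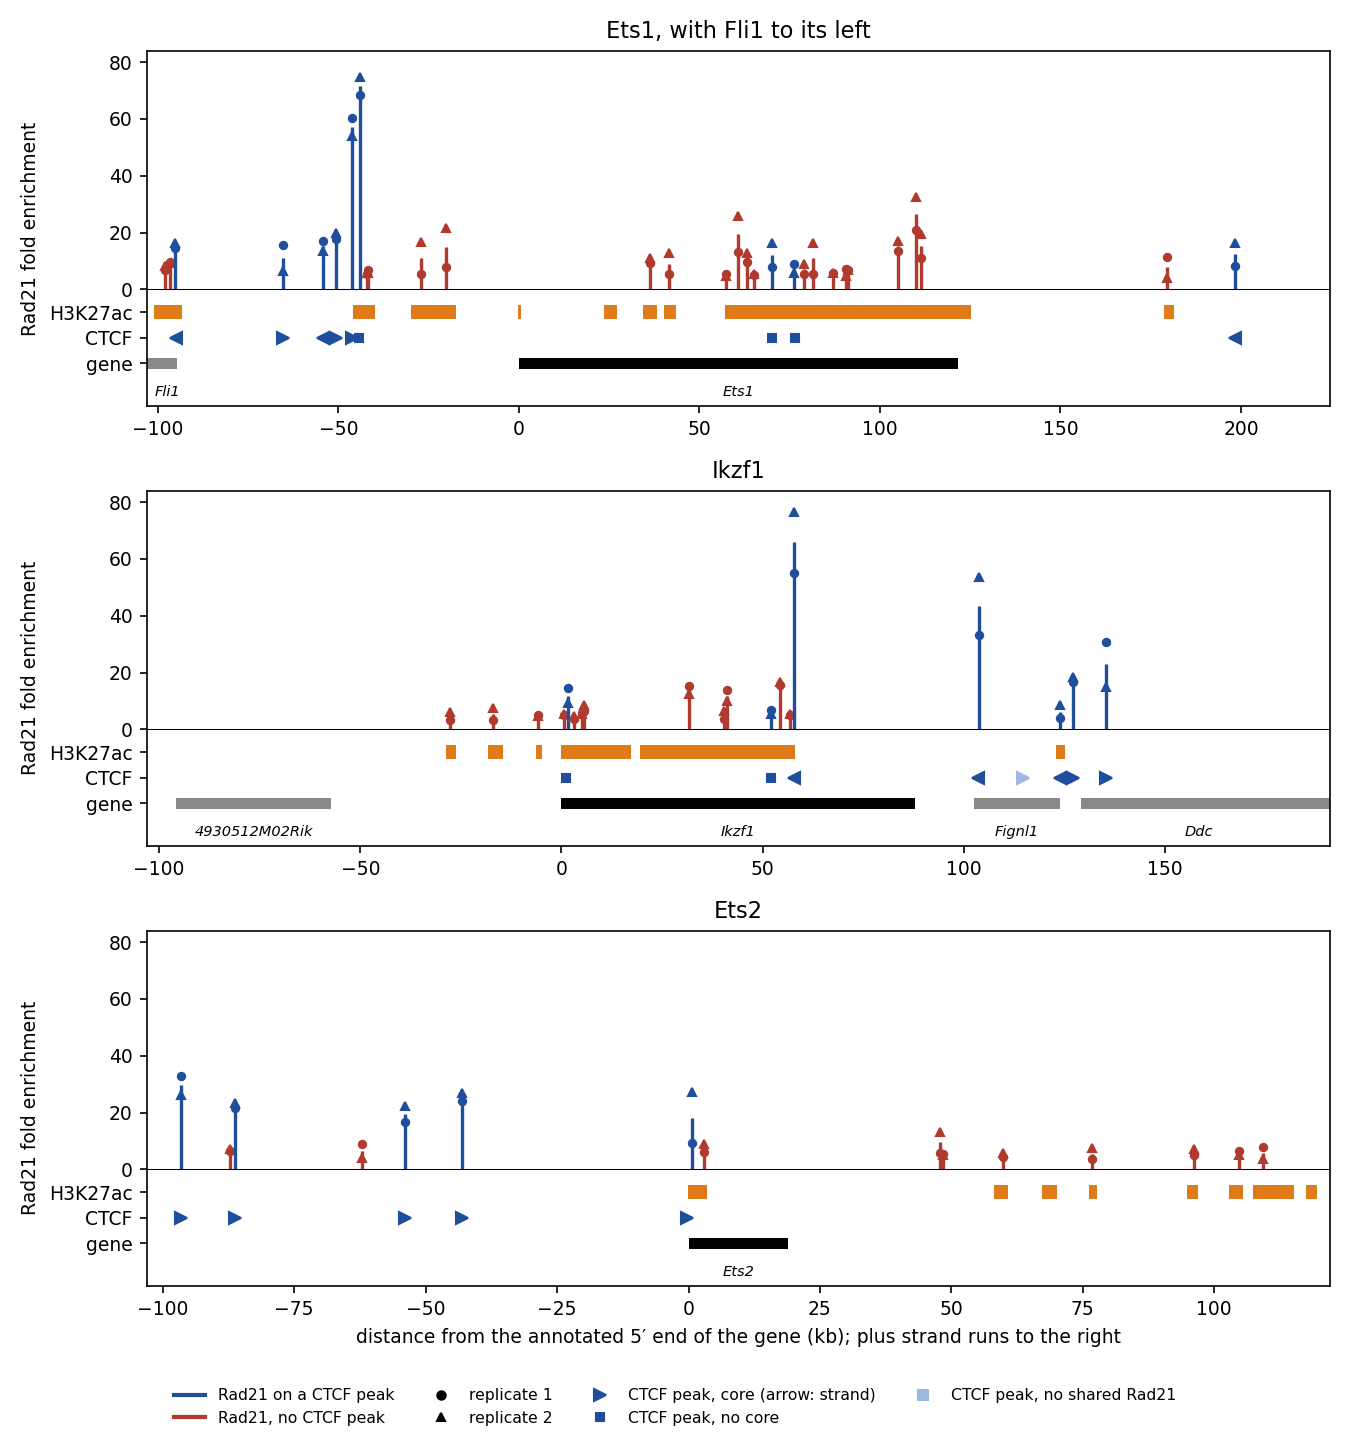
Maps of Ets1 (with Fli1 to its left), Ikzf1 and Ets2 by distance from the annotated 5′ end (kb), with Rad21 fold enrichment of each shared region (lines to the mean of both replicates, circles and triangles for replicates 1 and 2), shared H3K27ac, CTCF peaks with the strand of their core, and genes. The highest lines stand on CTCF peaks at -43.9 kb of Ets1 and 57.8 kb of Ikzf1, and the CTCF-free lines crowd over the H3K27ac blocks.

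At Ets2 the CTCF-bound cohesin lay upstream and at the promoter, and most CTCF-free cohesin lay in the gene and downstream. Ets2 encodes an Ets factor that responds to Ras signalling, and its window (gene at chr16:95923682-95942658, plus strand) holds no other protein-coding gene. All 5 CTCF peaks, with the printed cores, lay between -96.6 and -0.2 kb, and Rad21 there had folds of 9.18 to 32.9 in replicate 1 and 22.3 to 27.1 in replicate 2. No CTCF peak lay within the gene or in the 100 kb downstream. The 10 CTCF-free regions had folds of 3.48 to 8.93 in replicate 1 and 3.65 to 13.1 in replicate 2. With 5 and 10 regions the classes did not overlap in either replicate, though 8.93 and 9.18 lie close in replicate 1. Over all windows the classes overlapped. Of these 10, 2 lay upstream among the CTCF sites, at -87.3 kb, with folds of 6.35 and 7.25, and at -62.1 kb, with 8.93 and 4.10. Of the 10, 6 lay in shared H3K27ac and 4, both upstream regions among them, did not. Those at -62.1, 47.8 and 48.4 kb overlapped an H3K27ac peak of replicate 1 only, with folds of 7.35, 1.70 and 1.70. The widest H3K27ac stretch at the gene was 3.7 kb at the promoter, and 32.7% of all stretches are as wide.

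Direction of CTCF cores relative to the gene was not uniform over the 10 windows. The flanks held 49 cores under Rad21, and 4 of them, between Ets1 and Fli1, count for both genes, once toward and once away. Of the resulting 53 pairs of gene and core, 27 (50.9%) read toward the gene and 26 away, where over all genes 48.1% of 69851 pairs of gene and site read toward the gene. All 5 at Ets2 read toward the gene, as did 4 of 6 at Ets1, 5 of 10 at Ikzf3, 2 of 7 at Fli1 and 2 of 9 at Ikzf4.

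Ikzf3 and Elf1 held both classes of cohesin. With all CTCF peaks counted, CTCF-bound regions were more numerous at Ikzf3 and the classes about equal at Elf1. At Ikzf3 3 of 14 CTCF-bound regions, and at Elf1 2 of 9, overlapped only CTCF peaks with q above 0.05. The balance at both genes thus depends on whether such peaks are counted. Ikzf3 (chr11:98326216-98407345, minus strand) encodes Aiolos, known from B cells and from developing T cells, and its window with 11 other genes had 14 CTCF-bound and 9 CTCF-free regions. The H3K27ac stretch at the gene was 41.3 kb wide, the 160th widest, with 5 CTCF-free regions, and it ran past the end of the gene from 47.7 to 89.0 kb. The highest CTCF-bound region lay at its far edge at 88.3 kb, with Rad21 folds of 35.7 and 49.1. By the worse of both replicate ranks, the highest CTCF-free region of the window, with 11.2 and 12.7, was at the promoter of Zpbp2. This neighbour starts close to Ikzf3. In replicate 2 an intronic CTCF-free region at 18.9 kb of Ikzf3 was higher, with 16.2.

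Elf1 (chr14:79881001-79982283, plus strand) encodes an Ets factor of lymphoid and other blood cells, and its window had 9 CTCF-bound and 8 CTCF-free regions. Its H3K27ac stretch was 27.8 kb wide, the 395th widest, and held 3 CTCF-free regions. By the worse of both replicate ranks, the highest of the window was the printed region at 40.8 kb, with Rad21 folds of 7.25 and 10.5. In both replicates it lay below the best CTCF-free regions of Ets1, Ikzf1 and Fli1. In replicate 2 the CTCF-free region at 0.4 kb of Elf1 was higher, with 13.5. The highest CTCF-bound region was at -86.4 kb, with 42.1 and 33.4.

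The remaining 4 genes, Ikzf2, Ikzf4, Ikzf5 and Gabpa, had the lowest densities of CTCF-free cohesin over their windows. Ikzf2 (chr1:69577788-69732534, minus strand) encodes Helios, known in regulatory T cells, and its window holds no other protein-coding gene. No shared Rad21 region lay in its gene body, and all 6 of its window were at or upstream of the promoter. The 3 on CTCF had folds of 13.9 to 32.4 in replicate 1 and 17.0 to 49.4 in replicate 2. The 3 CTCF-free regions had 3.35 to 8.99 and 5.85 to 7.16, so the classes again did not overlap, with 3 regions in each. H3K27ac at Ikzf2 was uneven between libraries, with 30 peaks in replicate 1 and 9 in replicate 2.

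Ikzf4 (chr10:128067899-128083047, minus strand), with 10 other genes in its window, had 11 CTCF-bound and 3 CTCF-free regions, and 1 CTCF-free region in its body with folds of 3.87 and 4.39. Ikzf5 (chr7:138532166-138554035, minus strand) encodes Pegasus, the most divergent member of the family. Its 2 Rad21 regions were a CTCF-free region at its promoter, shared with the neighbour Acadsb, with folds of 8.80 and 9.24, and a CTCF-bound region at the promoter of Pstk, with 8.37 and 11.9. Gabpa (chr16:84835170-84864024, plus strand) had 4 Rad21 regions, all on CTCF and none in its body, with folds of 4.46 to 19.1 in replicate 1 and 5.38 to 41.5 in replicate 2. Its H3K27ac stretch was 2.5 kb wide and held no shared Rad21 region.

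Rad21 was higher on CTCF than off it. In replicate 1 the median fold was 14.3 over the 68 CTCF-bound regions and 6.40 over the 74 CTCF-free regions, a ratio of 2.23. In replicate 2 the medians were 16.7 and 7.29, a ratio of 2.29. The ratio over the genome was 2.11 in replicate 1 and 2.05 in replicate 2. The classes overlapped, with quartiles of 8.23 to 20.3 on CTCF and 5.24 to 7.79 off it in replicate 1. Inside the gene bodies alone the geometric mean of both ratios was 1.51, against 2.26 in the whole windows. Spearman's rho between the replicates' folds was 0.735 over the 142 regions and 0.773 over the genome, where regions are no replicates.

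**Figure D5:**
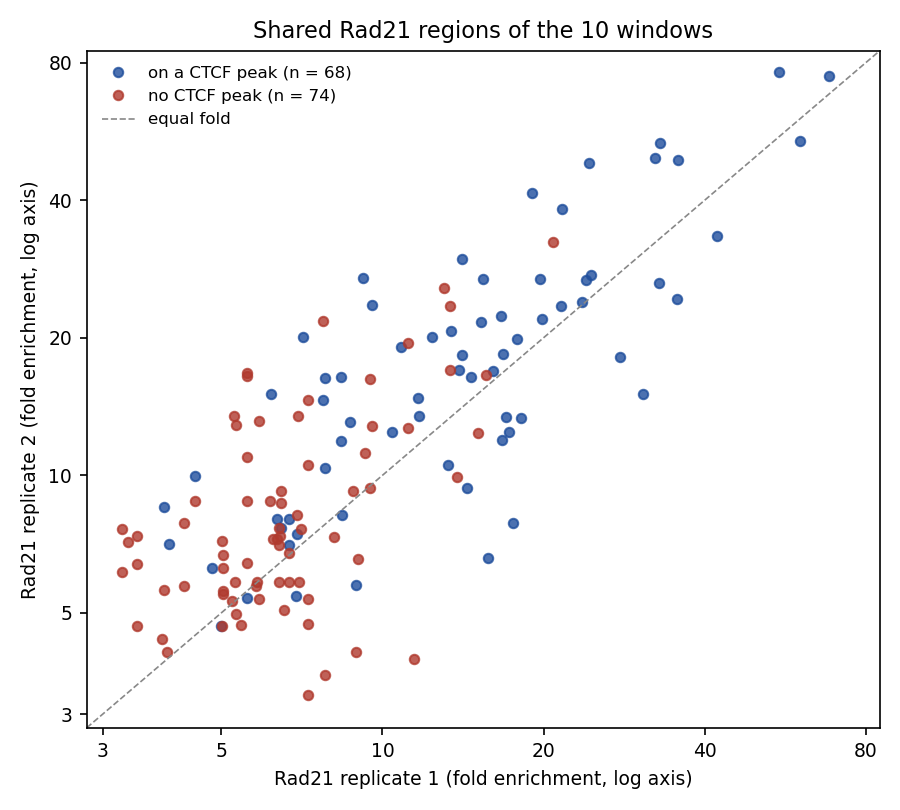
Rad21 fold enrichment of the 142 shared regions of the 10 windows in replicate 1 (horizontal, log axis) and replicate 2 (vertical, log axis), for regions on a CTCF peak and for regions with none; the dashed line marks equal fold. CTCF-bound regions reach 68.3 and 76.5, and CTCF-free regions reach 20.8 and 32.5.

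At CTCF-free Rad21 summits the CTCF core was rarer than in the genome, and the other motifs searched were found at few summits. Within 50 bp of the summit, a CTCF core with at most 2 mismatches was present at 77.9% and 79.4% of CTCF-bound regions in replicates 1 and 2, against 84.3% and 83.4% in the genome. At CTCF-free regions it was present at 10.8% in either replicate, against 21.1% and 20.8%. An Ets core was found at 4.05% and 6.76% of the 74 CTCF-free summits, which is 3 and 5 regions, against 5.96% and 6.03%. The Ikaros core was found at 5.41% and 6.76%, against 7.43% and 7.25%, and the Runx core at 8.11% and 9.46%, against 5.97% and 6.36%. The E-box CAGCTG was at 10.8% in either replicate, against 12.0% and 12.3%, and CAGGTG at 16.2% and 9.46%, against 13.9% and 14.7%. These matches describe letters, not binding, and each rests on few regions.

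Other genes of the Ets family and partners of the members were looked up at their promoters. Of 21 further Ets family genes, 11 had promoter H3K27ac, 7 had Rad21, 6 had CTCF and 6 had none of them. The shares of H3K27ac, Rad21 and CTCF were near the backgrounds of 41.5%, 31.5% and 26.4% given above. Elf2 had Rad21 folds of 8.06 and 10.5 at its promoter with no CTCF peak, and Elf4 had 16.2 and 18.8 with 2 CTCF peaks. Elf3 and Elf5, known mainly from epithelial cells, had CTCF folds of 12.4 and 14.7 and neither shared Rad21 nor H3K27ac. Of 12 genes for partners of the members, such as Gabpb1, the partner of Gabpa, and Chd4, the remodeller that works with Ikaros, all 12 had H3K27ac. Rad21 was at 9, where 61% of all genes with promoter H3K27ac had it. CTCF was at 4, where the background was 26.4%. For 12 genes, both counts lie near these shares. Runx1, whose product binds DNA together with Ets1, had the highest Rad21 folds of these lists at 46.4 and 50.5. Its promoters also had a CTCF peak with a fold of 8.08, and 5 of their 7 shared Rad21 regions were CTCF-free. In replicate 1 no CTCF-free shared region of the genome had a fold above 45.2. No test was run on these lists.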

How the data were processed

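The data were ChIP-seq peak lists of wild type thymocytes from 5 libraries, 1 of CTCF and 2 each of Rad21 and H3K27ac. Groups and replicate numbers came from the labels. Peaks were called by the authors, per the file formats narrow for CTCF and Rad21 and broad for H3K27ac, on mm9 per the submitters' processing notes. These notes name CASAVA 1.82 and 1.84, Bowtie 1.0.0, Bowtie2 2.3.2, MACS2 2.1.0, HiC-Pro 2.7.8 and Juicer 0.7.5 for the series, with no role for each. For thresholds and controls of the calls, the sources used here give no statement.

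Each deposited peak has a fold enrichment, a ratio over local background from the authors' caller, used only within a list. It also has a deposited −log10 p and −log10 q, of which −log10 q entered alternatives, and a deposited score, which was not used. A peak list depends on the threshold of the caller, so a stretch with no peak is not shown to lack the protein.

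From these lists, chromosomes 1 to 19 and X were analysed, and entries with equal coordinates were counted once. An overlap needed 1 bp. Regions with a peak of each replicate were shared. Genes were taken from GENCODE vM1, annotated on NCBIM37, which mm9 displays. A promoter was 2 kb on either side of every annotated start of a gene, and H3K27ac regions within 12 kb were joined into stretches. Sequences were read from NCBIM37. The CTCF core was searched on both strands.

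The genes and lists were chosen with earlier results of these data known. All values are descriptions beside the genome or all genes, because peak lists hold no reads and the genes are no replicates. All 10 genes, their promoters, the highest region of each class by the worse of both replicate ranks and the widest H3K27ac stretch were named by rule, as were up to 6 further Ets genes in list order. Other single regions at these genes, and Runx1 among the partners, were named after their values were seen. Scripts were tested on simulated data, in Python 3.11.15 with numpy 2.4.6, scipy 1.17.1, pysam 0.24.0 and matplotlib 3.10.9. Alternatives tried were −log10 q from 5 upward, a 50% overlap, windows of 50 kb or of the gene body, promoters of 500 bp, joining within 3 kb, 100 bp around summits, at most 1 mismatch, regions at promoters of other genes left out, each replicate left out and, chosen after seeing the data, the Ets1 and Fli1 windows left out. The value of 1 marker gene is not reported here.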

Additional observations from a re-analysis of the deposited data

How the results depend on the processing

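Of 106 values under alternative settings, 64 were called the same and 42 moved. Counts and densities were judged by a ratio of 1.5, and matched shares of replicate peaks by a binomial (Wilson) interval over peaks, which are not independent. All other values were judged by the spread between replicates. For the CTCF core at CTCF-free summits both replicates gave 10.8%, so any change counted as moved. Under each of the 7 settings that change the lists, the overlap or the libraries, the CTCF share of Rad21 regions was lower in the windows than in the genome and the share of CTCF-free regions in H3K27ac was higher. With 5 as the smallest −log10 q kept, whether for Rad21 and CTCF alone or for all lists, the CTCF share of Rad21 regions was 40.4% (47.9% as reported), the Rad21 density 4.00 per 100 kb (6.55), the height ratio 2.09 (2.26), the matched share of Rad21 replicate 2 peaks 68.5% (61.3%) and CTCF lay at 2 promoters (5). The share of CTCF-free regions in H3K27ac was 80% with that threshold for Rad21 and CTCF alone and 30.8% with it for all lists (86.5%). Used for all lists it also left H3K27ac at 3 promoters (9), a median of 0 H3K27ac regions per 100 kb (2.50) and 17.1% and 38.1% of H3K27ac replicate 1 and 2 peaks matched (45.3% and 88.5%), since fewer H3K27ac peaks are kept.

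Windows of 50 kb gave a CTCF share of 40.6% and a height ratio of 2.20. Gene bodies alone gave a CTCF share of 28.3%, H3K27ac at 100% of CTCF-free regions, 0.822 CTCF peaks and 4.34 H3K27ac regions per 100 kb, and a height ratio of 1.51. Leaving out regions at promoters of other genes gave a height ratio of 2.46, as did leaving out the Ets1 and Fli1 windows, which also put H3K27ac at 78.3% of CTCF-free regions. CTCF cores with at most 1 mismatch were at 44.1% of CTCF-bound and 3.38% of CTCF-free summits (78.7% and 10.8%), and cores within 100 bp at 83.1% and 16.2%. The cause of these shifts was not tested.

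Leaving out each replicate gave CTCF shares of 28.4% to 37.7%, H3K27ac at 78.7% to 89.2% of CTCF-free regions, densities of 6.55 to 10.3 for Rad21 and 2.50 to 5.51 for H3K27ac, a median widest H3K27ac stretch of 25447 to 53441.5 bp (19956.5 bp) and height ratios of 2.42 to 2.88. The counts of marked promoters stayed within 1.5 times. No paired analysis was possible because the results come from no test and no groups were compared. Depth is unknown, and the CTCF list has 1 library, so its spread is unknown.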

Other observations

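Promoters most like those of the best covered members were looked for over all genes by the distance between their percentile ranks in the 5 libraries. A gene's rank was that of its highest promoter peak by fold, and 0 where it had none. Likeness in CTCF status is thus largely built into the distance. Both H3K27ac libraries, whose folds were almost uncorrelated, entered the distance, so the order rests partly on them. Nearest to Ets1 were Znrf1 at a distance of 7.93 percentile points, Btg1 at 8.95 and Dnajb4 at 10.4, all without a CTCF peak. Nearest to Ikzf1 were Zfp251 at 13.9, Vamp4 at 15.4 and Crb3 at 16.8, all with CTCF.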
